A study of Macaca mulatta with 12 samples.

Results

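The miR-26 family of *Macaca mulatta* consists of 3 pre-miRNAs, i.e., mml-mir-26a-1, mml-mir-26a-2 and mml-mir-26b, among 832 legible pre-miRNAs in the list of the study. The members were chosen by these names, and all 3 were found. Because both copies of miR-26a carry the same 5′ mature miRNA, the family has 5 distinct mature sequences of 1219, and these are miR-26a-5p, miR-26b-5p, miR-26a-1-3p, miR-26a-2-3p and miR-26b-3p. Small RNAs were sequenced in 12 profiles of 8 tissues from wild-type rhesus macaques aged 36 months, without any treatment. There were 2 profiles each of kidney, muscle, large intestine and small intestine, and 1 each of liver, lung, spinal cord and occipital lobe. The animals were 2 according to the methods of the study, but the labels do not tie the number of a profile to an animal, so that differences between 2 profiles of a tissue may be technical or may lie between animals.

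The miR-26 miRNAs are expressed in most tissues of vertebrates, where they repress mRNAs such as that of EZH2, the methyltransferase of histone H3 lysine 27. Their genes lie within genes of the CTDSP family of small phosphatases, which act on RNA polymerase II and other proteins, and a miRNA and its host are often transcribed together. In the RefSeq gene table of the assembly T2T-MMU8v2.0, mml-mir-26a-1 lay within the span of CTDSPL, mml-mir-26a-2 within that of CTDSP2 and mml-mir-26b within that of CTDSP1. The 5′ arm of the hairpin gives the guide strand, which is loaded into Argonaute, and the 3′ arm gives the passenger strand, which is mostly degraded. Terminal nucleotidyl transferases can add U or A to the 3′ ends of mature miRNAs, and miR-26a is a known substrate of the uridylyl transferase TUT4 in human cells.

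The mature sequences are shown with the seed, i.e., nucleotides 2 to 8, in capitals, because the seed decides most of the targets.
miR-26a-5p: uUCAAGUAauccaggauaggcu
miR-26b-5p: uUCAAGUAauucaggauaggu
miR-26a-1-3p: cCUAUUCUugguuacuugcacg
miR-26a-2-3p: cCUAUUCUugauuacuuguuuc
miR-26b-3p: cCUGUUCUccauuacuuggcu
Both 5′ miRNAs carry the seed UCAAGUA. Counted from the 5′ end, they differ by C11U and C21U over the 21 nucleotides that both have, with the base of miR-26a-5p given first. The miR-26a 3′ miRNAs share the seed CUAUUCU and differ by G11A, C19U, A20U, C21U and G22C, and miR-26b-3p has another seed, CUGUUCU.

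The next 6 templated nucleotides of each 5′ miRNA are given in capitals in the following sequences, because a nucleotide was regarded as non-templated only when it differed from the hairpin.
mml-mir-26a-1: uucaaguaauccaggauaggcuGUGCAG
mml-mir-26a-2: uucaaguaauccaggauaggcuGUUUCC
mml-mir-26b: uucaaguaauucaggauagguUGUGUG
The mml-mir-26a copies part only after GU, i.e., 2 nucleotides beyond miR-26a-5p. Reads of miR-26a-5p of the usual length therefore cannot be assigned to one of them.

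The depth ranged from 22118095 to 25579064 reads, so that 1 read was worth 0.391 to 0.452 reads per 10000000 total reads (RPTM). The sums of muscle, neuronal and liver marker miRNAs were highest in the tissues they mark. The muscle list reached 137191 and 158238 RPTM in muscle and at most 944 RPTM elsewhere, the neuronal list 395069 and 265452 RPTM in occipital lobe and spinal cord and at most 995 RPTM elsewhere, and miR-122 summed to 7739 RPTM in liver and at most 4.37 RPTM elsewhere. The list for intestinal epithelium was highest in small intestine, at 2064296 and 1645348 RPTM, but liver, at 1214343 RPTM, exceeded both profiles of large intestine, at 1002511 and 452958 RPTM. Oligodendrocyte miRNAs summed to 27375 RPTM in spinal cord, 5363 RPTM in occipital lobe and at most 582 RPTM elsewhere. No markers had been fixed for kidney or lung. Blood cell miRNAs were detected in every profile, from 10945 RPTM in large intestine 1 to 826996 RPTM in muscle 2.

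miR-26a-5p was an abundant miRNA in every tissue. For the levels, a read was counted when it was an exact part of the hairpin and neither end lay more than 2 nucleotides from that of the mature miRNA. By these templated reads, miR-26a-5p ranked between 7, in occipital lobe, and 16, in small intestine 2, among the 1219 mature sequences of the legible pre-miRNAs. Occipital lobe had 206105 RPTM and spinal cord 130461 RPTM. In muscle it was 139594 and 113834 RPTM, and lung, with 135307 RPTM, fell between the muscle profiles. Spinal cord also lay between the muscle profiles, so that occipital lobe was the highest profile and was followed by a group of muscle, lung and spinal cord.

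Kidney had 69988 and 36597 RPTM of miR-26a-5p, and liver, with 55428 RPTM, fell between them. Small intestine had 37936 and 28119 RPTM, and large intestine 23347 and 40839 RPTM. The profiles of the intestines overlapped with each other, and large intestine 2 also exceeded kidney 2. The highest profile was 8.83 times the lowest, and both profiles of muscle exceeded all profiles of kidney, liver and the intestines.

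miR-26b-5p had the same seed and much lower levels, with a median of 3473 RPTM against 62708 RPTM for miR-26a-5p. It had 6586 RPTM in lung, 5474 RPTM in liver, 4692 RPTM in spinal cord and 4947 RPTM in occipital lobe. Kidney, with 4049 and 3030 RPTM, and muscle, with 3917 and 2997 RPTM, overlapped with each other. The intestines were lowest and also overlapped, with 2235 and 1411 RPTM in small intestine and 1368 and 2113 RPTM in large intestine. Thus, the 4 tissues with 1 profile came above all paired tissues for miR-26b-5p, while muscle was among the high tissues for miR-26a-5p only.

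**Figure D1:**
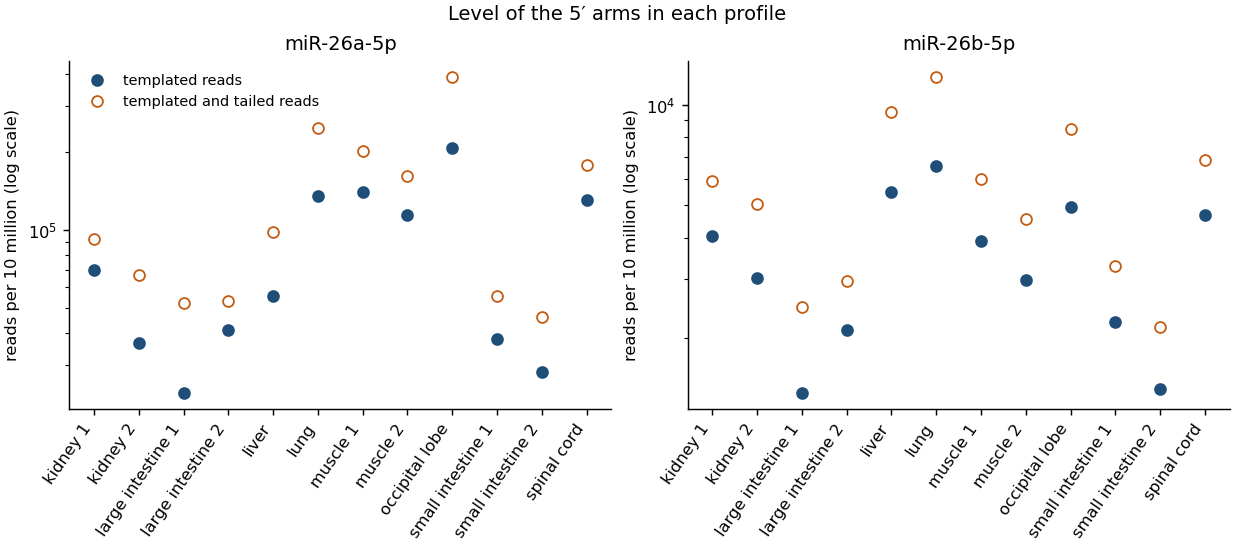
Level of miR-26a-5p (left) and miR-26b-5p (right) in the 12 profiles, in reads per 10000000 total reads on a logarithmic axis, from templated reads (filled) and from templated and tailed reads together (open), 1 point for each profile. For miR-26a-5p, the large intestine profiles differ 1.75 times by templated reads and 1.01 times when tailed reads are included.

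To compare the tissues, the counts of 371 mature miRNAs were fitted with edgeR, with occipital lobe and spinal cord as 1 neural group, and each of the 7 groups was compared with the mean of the other groups. The filter asked for a mean of 5 RPTM or more and an SD of 1 RPTM or more. The single profiles of liver and lung borrowed their spread from the other groups. Of the 5 mature sequences, 3 passed the filter, i.e., miR-26a-5p, miR-26b-5p and miR-26b-3p. None of these 3 was called at an adjusted p under 0.05 in any group by edgeR's quasi-likelihood test. Of all tested miRNAs, the neural group had the most calls, with 43.7% upwards and 24.3% downwards. For muscle, these shares were 22.6% and 15.4%, for liver 11.9% and 12.1%, for lung 6.47% and 8.89%, for kidney 12.9% and 4.58%, for large intestine 11.9% and 4.85%, and for small intestine 13.2% and 4.58%. Of the 21 comparisons of a member, 1 had an unadjusted p under 0.05 in edgeR, and DESeq2 called 2, i.e., miR-26a-5p upwards in muscle, where it called 25.6% of all tested miRNAs upwards, and miR-26b-5p downwards in the neural group, where it called 31% downwards. With the size factors of DESeq2 in edgeR, these 2 were called as well, beside 24.5% and 28.6% of all tested miRNAs. A missed threshold does not show that the levels were equal, as the SE of these differences was up to 0.59 on the log2 scale for miR-26a-5p.

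The largest of these differences was that of miR-26a-5p in muscle, which was 0.97 ± 0.40 higher (log2 fold change ± SE, 2 profiles), with an adjusted p of 0.07 in edgeR. With the test of DESeq2, the adjusted p was 0.017, and with its size factors in edgeR it was 0.037. Without any one of kidney 1, large intestine 2, lung, occipital lobe or spinal cord, it was also called by edgeR. In the neural group, the log2 fold change was 0.37 ± 0.41 for miR-26a-5p and -0.61 ± 0.36 for miR-26b-5p, with adjusted p-values of 0.43 and 0.15 in edgeR. The median of all 371 miRNAs in this comparison was 0.89, above both members. miR-26b-5p in liver had a log2 fold change of 0.63 ± 0.43 (adjusted p = 0.32 in edgeR). In large intestine and small intestine, the log2 fold changes were -0.51 and -0.58 for miR-26a-5p and -0.37 and -0.40 for miR-26b-5p, all with adjusted p-values of 0.41 or higher in edgeR.

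These differences depended on the scaling. The TMM factors, which edgeR estimates so that most miRNAs have similar levels, ranged from 0.555 in large intestine 2 to 2.35 in spinal cord. When the levels were scaled by the total reads instead, the log2 fold changes of all tested miRNAs moved by a median of 1.15 in the neural group. This median shift was -0.79 in large intestine, -0.71 in small intestine, 0.65 in lung, -0.40 in kidney and at most 0.09 in the other groups. By total reads, miR-26a-5p rose in the neural group by 1.45 ± 0.33 and fell in large intestine by 1.33 ± 0.40 and in small intestine by 1.29 ± 0.40 on the log2 scale, with adjusted p-values of 0.0023, 0.031 and 0.033 in edgeR. miR-26b-5p fell by 1.19 ± 0.32 and 1.11 ± 0.31 in the same intestines (adjusted p = 0.02 and 0.025 in edgeR), and its difference in the neural group changed its sign to 0.53 ± 0.28. The other calls by total reads were miR-26a-5p in muscle, with 0.98, and miR-26b-3p in the neural group, with 1.0, which was -0.09 by TMM (adjusted p = 0.046 and 0.025 by total reads in edgeR). On this scale, 62.5% of the tested miRNAs were called upwards in the neural group and 22.6% in muscle, and 21.3% and 24.5% downwards in large and small intestine. In the neural group, miR-26a-5p thus moved from 0.37 by TMM to 1.45 by total reads, beside the median shift of 1.15. The median of all tested miRNAs in this group was already 0.89 by TMM, above the 0.37 of miR-26a-5p. In large and small intestine, miR-26a-5p moved from -0.51 and -0.58 to -1.33 and -1.29, beside median shifts of -0.79 and -0.71.

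**Figure D2:**
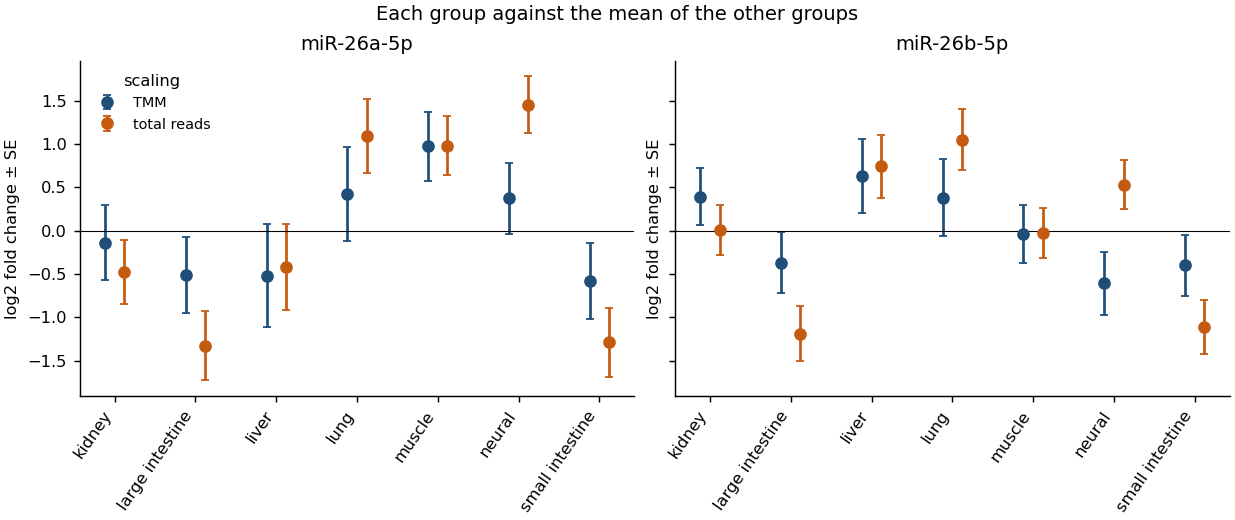
Log2 fold change of miR-26a-5p (left) and miR-26b-5p (right) in each group against the mean of the other groups, with bars of 1 SE, by TMM scaling (blue) and by total reads (orange). Muscle stays at about the same value for miR-26a-5p (0.97 and 0.98), while the neural value of miR-26b-5p moves from -0.61 to 0.53.

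Because both 5′ miRNAs were counted in the same libraries, their proportion does not depend on the scaling. miR-26b-5p made up 8.99% of the templated 5′ reads of the family in liver, the highest share, and 2.34% in occipital lobe, the lowest. In muscle it was 2.73% and 2.56%, and in spinal cord 3.47%. Kidney had 5.47% and 7.65%, large intestine 5.54% and 4.92%, small intestine 5.56% and 4.78%, and lung 4.64%. The muscle profiles thus lay below all profiles of kidney and the intestines. Profiles of the same tissue differed by 0.936 percentage points on average. Over all ways to draw 4 pairs from 12 profiles, differences as small as this were found with p = 0.026 (one-sided exact permutation test), and p = 0.26 after adjustment over 10 measures of the family. When tailed reads were included, the share ranged from 2.13% in occipital lobe to 8.86% in liver.

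The 3′ arms were rare. miR-26b-3p was the only passenger strand with more than a few reads, from 23.4 RPTM in large intestine 2 to 104 RPTM in occipital lobe. Its levels were 71.4 RPTM in liver, 70.0 RPTM in lung, 66.9 RPTM in spinal cord, 56.3 and 45.8 RPTM in muscle, 35.6 and 26.5 RPTM in kidney, 32.3 and 33.3 RPTM in small intestine, and 23.5 and 23.4 RPTM in large intestine. It was 1.35% of the templated reads of mml-mir-26b over all profiles. This share was 0.871% and 0.865% in kidney, 2.06% in occipital lobe, and 1.43% and 2.31% in small intestine, so that small intestine alone spanned much of the range between the profiles (p = 0.23, one-sided exact permutation test, and 0.47 adjusted over 10 measures).

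**Figure D3:**
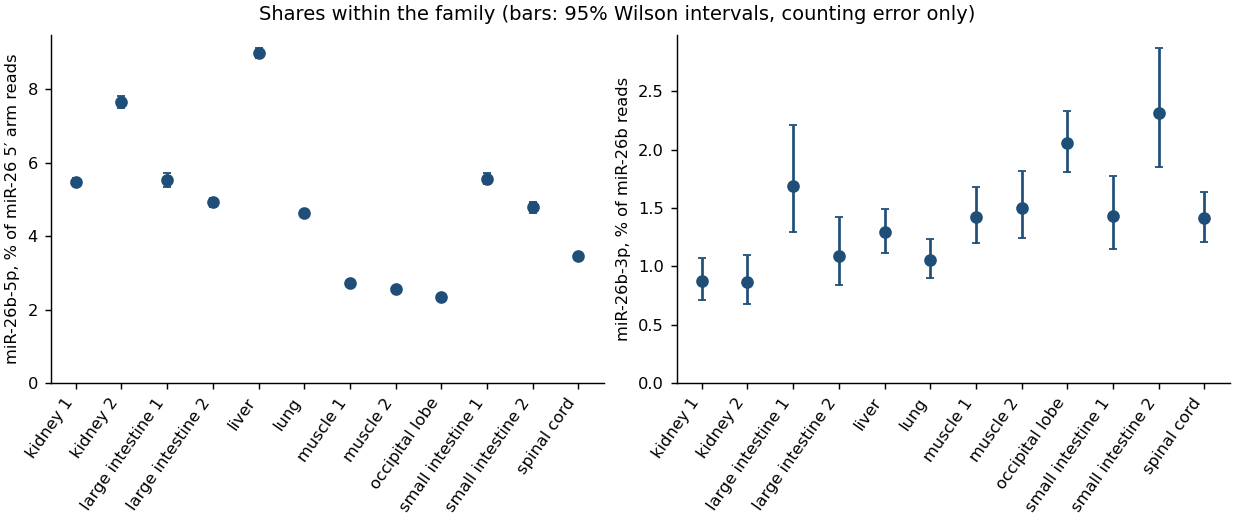
Share of miR-26b-5p in the templated 5′ reads of the family (left, percent) and share of miR-26b-3p in the templated reads of mml-mir-26b (right, percent) in each profile, with 95% Wilson intervals that cover counting error only. Both muscle profiles (2.73% and 2.56%) and occipital lobe (2.34%) hold the lowest shares of miR-26b-5p, and liver (8.99%) the highest.

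For miR-26a, only 94 reads of the 3′ arms were found beside 2403535 templated reads of the 5′ arm, which is 0.00391% of their sum. Unlike the 5′ arm, the 3′ arms tell the copies apart. miR-26a-2-3p, with 82 reads, was found in all 12 profiles, with 1 read in liver and 13 reads each in occipital lobe and spinal cord. miR-26a-1-3p had 12 reads, with at most 3 in a profile and 0 in large intestine 2, liver, both muscle profiles and spinal cord. Both were below the filter and were not tested. Of the reads of 25 nucleotides that run past the shared flank of miR-26a-5p, 62 had the sequence of mml-mir-26a-2 and 1 that of mml-mir-26a-1. However, the last nucleotide is a U in the former. An added U on the shared form of 24 nucleotides, which had 1583 reads, gives the same sequence. These origins cannot be told apart, so that the 62 reads do not identify the copy. These counts describe the passenger strand and a rare long form, and they do not give the proportion of the copies among the usual miR-26a-5p reads.

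The 5′ ends of the templated reads were precise, so that the seed was kept in them. miR-26a-5p started at its annotated position in 99.8% of the templated reads, and miR-26b-5p in 99.9%. The 3′ ends were more variable and differed between the members. Of the templated reads of miR-26a-5p, 92.8% had 22 nucleotides, with 89.3% in lung as the lowest and 94.5% in kidney 1 as the highest share. For miR-26b-5p, the annotated miRNA of 21 nucleotides was not the main form. Instead, 79.3% of its templated reads had 22 nucleotides, with one more templated U, and 14.4% had 21. This share of 22 nucleotides was between 77.4% in lung and 82.0% in small intestine 1. For both miRNAs, it was not detectable that 2 profiles of a tissue were closer in this share than other profiles (p = 0.52 and 0.74, one-sided exact permutation test, and 0.74 and 0.78 adjusted over 10 measures).

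Non-templated nucleotides at the 3′ end were counted in reads that match the hairpin up to an end within 2 nucleotides of the mature end and carry 1 to 3 further nucleotides, the first of which differs from the hairpin. The share of each nucleotide is given in percent of all templated and tailed reads of the miRNA. The following forms of miR-26a-5p and miR-26b-5p are shown as examples of added U, A and C, with non-templated nucleotides in capitals, and other forms not shown were more abundant than some of them.
miR-26a-5p with U: uucaaguaauccaggauaggcuU
miR-26a-5p with A: uucaaguaauccaggauaggcuA
miR-26a-5p with C in place of the last U: uucaaguaauccaggauaggcC
miR-26b-5p, main form: uucaaguaauucaggauagguu
miR-26b-5p with A: uucaaguaauucaggauagguuA
miR-26b-5p with U: uucaaguaauucaggauagguuU
miR-26b-5p with C in place of the last U: uucaaguaauucaggauagguC
Tailed reads were 37.8% of the reads of miR-26a-5p and 38.2% of those of miR-26b-5p over all profiles. However, the added nucleotide differed between the members, with mostly C for miR-26a-5p and mostly A and C for miR-26b-5p.

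**Figure D4:**
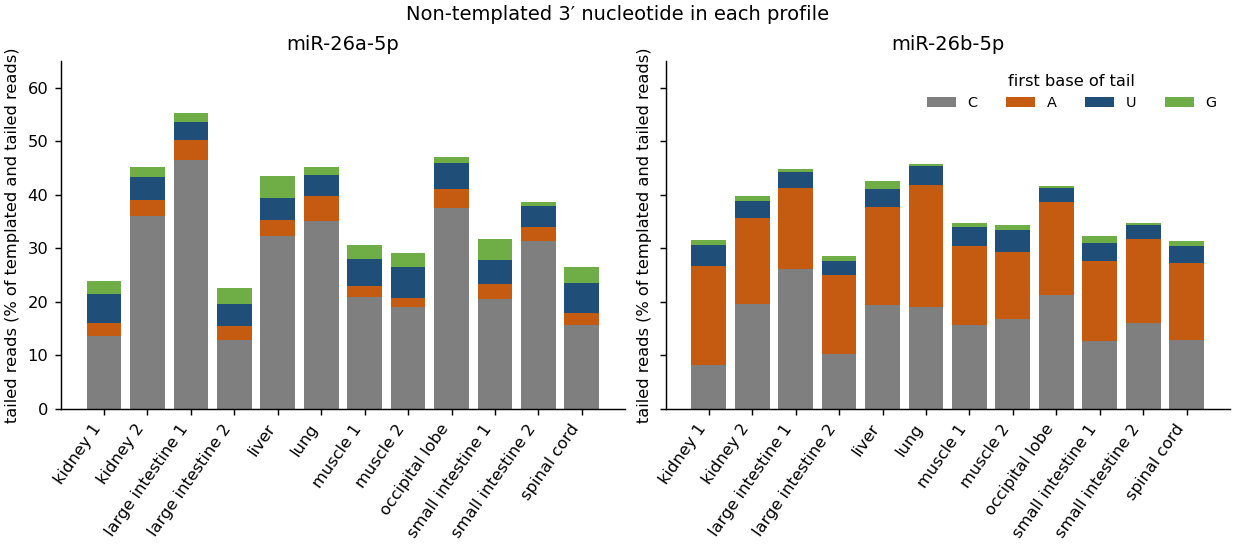
Share of reads with a non-templated 3′ nucleotide in each profile, in percent of the templated and tailed reads of miR-26a-5p (left) and miR-26b-5p (right), stacked by the first nucleotide of the tail. C varies most, from 12.9% to 46.6% for miR-26a-5p, and A is larger for miR-26b-5p (12.5% to 22.8%) than for miR-26a-5p (1.58% to 4.55%) in every profile.

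U was added to miR-26a-5p in a median of 4.33% of the reads, which was rank 22 of the 68 miRNAs with at least 1000 reads in every profile and above their median of 1.46%. The 3′ adapter of the libraries starts with TGG. A single U at the end therefore cannot be told apart from 1 adapter nucleotide left after trimming. Tails of UG or UGG, the first nucleotides of the adapter, were 0.0463% of all miR-26a-5p reads. Muscle had 5.17% and 5.78%, spinal cord 5.50%, kidney 5.43% and 4.17%, and occipital lobe 4.96%. Small intestine had 4.49% and 3.97%, large intestine 3.40% and 4.17%, liver 4.07% and lung 4.02%. The muscle profiles lay above those of both intestines, liver and lung, but kidney 1 and spinal cord fell between the muscle profiles. The form with 1 added U after the annotated end alone was 4.31% of all miR-26a-5p reads, and the tail of UU, after any templated end, was 0.224%. For miR-26b-5p, the share of U was between 2.50% in large intestine 2 and 4.09% in muscle 2, with a median of 3.27%. The miRNAs with the highest median share of U were mml-mir-148b-3p (62.1%), mml-mir-320a-3p (27.7%) and mml-mir-103-1-3p (23.7%).

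The log2 odds of U were compared between the same 7 groups with limma, over all 68 miRNAs. Of the 14 comparisons of miR-26a-5p and miR-26b-5p, 0 passed an adjusted p of 0.05 in limma and 0 had an unadjusted p under 0.05. Over all 68 miRNAs, muscle had 10.3% called upwards and 2.94% downwards, the neural group 1.47% upwards and 7.35% downwards, and 0% were called in either direction in the other 5 groups. In muscle, the difference was 0.36 ± 0.19 for miR-26a-5p and 0.26 ± 0.20 for miR-26b-5p (log2 odds ± SE, limma, adjusted p = 0.28 and 0.44).

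Of both 5′ miRNAs, miR-26b-5p had the larger share of reads with added A. Its share was 22.8% in lung, 18.4% in liver, 18.5% and 16.0% in kidney, 17.4% in occipital lobe, 15.0% and 15.8% in small intestine, 15.1% and 14.9% in large intestine, 14.3% in spinal cord, and 14.9% and 12.5% in muscle. The median of 15.4% was rank 16 of the 68 miRNAs. miR-26a-5p had a median of 2.67%, which was rank 55 and below the median of 5.66% over the 68 miRNAs. It was also highest in lung, with 4.55%, and lowest in muscle, with 1.92% and 1.58%. Spinal cord had 2.26%, occipital lobe 3.41% and liver 3.05% of A on miR-26a-5p. Kidney had 2.41% and 3.08%, large intestine 3.62% and 2.51%, and small intestine 2.79% and 2.54%, so that both muscle profiles were below every other profile. The miRNAs with the highest median share of A were mml-mir-92a-1-3p (79.7%), mml-mir-28-3p (34.6%) and mml-mir-125b-1-3p (30.5%).

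The odds of A on miR-26a-5p fell in muscle by 0.84 ± 0.23 on the log2 scale (± SE, limma, adjusted p = 0.044), which was the single call among the 14 comparisons of both members, of which 4 had an unadjusted p under 0.05. At this threshold, 16.2% of the 68 miRNAs were called lower in muscle and 0% higher, and in the other 6 groups 0% in either direction. The median share of A over the 68 miRNAs was itself lowest in muscle 2, with 3.97%, and was highest in lung, with 8.45%. For miR-26b-5p in muscle, the difference was -0.40 ± 0.17 (limma, adjusted p = 0.13). In lung, a single profile, the differences were 0.82 ± 0.31 for miR-26a-5p and 0.65 ± 0.22 for miR-26b-5p (limma, adjusted p = 0.1 for both). The call in muscle was lost when most single profiles were left out, with an adjusted p between 0.051 and 0.37 in limma without any one of the profiles other than spinal cord. Blood cell miRNAs were highest in the muscle profiles, with 455927 and 826996 RPTM, and their part in this result was not tested.

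The most frequent non-templated nucleotide of miR-26a-5p was C. The form that ends in C in place of the last U held 26.8% of all miR-26a-5p reads and was second only to the annotated miRNA with 57.7%. In total, C was found in 46.6% of the reads in large intestine 1 but in 12.9% in large intestine 2. Kidney had 13.6% and 36.0%, small intestine 20.6% and 31.4%, and muscle 21.0% and 19.1%. Occipital lobe had 37.6%, lung 35.2%, liver 32.3% and spinal cord 15.7%. The range within a single tissue thus covered the range of all tissues, and the 2 profiles of a tissue differed by 17.2 percentage points on average (p = 0.84, one-sided exact permutation test, and 0.89 adjusted over 14 measures). The measures of C and G were added after the data had been seen.

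The same was measured on other miRNAs. Of the miRNAs whose annotated last nucleotide is U and with at least 200 reads, miR-26a-5p included, the median share that ended in C instead was 34.3% in large intestine 1 and 10.8% in large intestine 2. It was 11.4% and 29.0% in kidney 1 and kidney 2, where miR-26a-5p had 15.3% and 40.8% by the same measure. For miRNAs that end in A, the median share was between 1.22% and 2.93%, and for those that end in G between 1.73% and 6.26%. miR-26a-5p exceeded the median of the miRNAs that end in U in every profile. In the median over the profiles of all non-templated C, it had rank 3 of the 68 miRNAs with 26.2%, after mml-mir-101-1-3p (40.2%) and mml-mir-409-3p (26.9%). The labels give no batch for the profiles, and what sets this share was not tested.

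**Figure D5:**
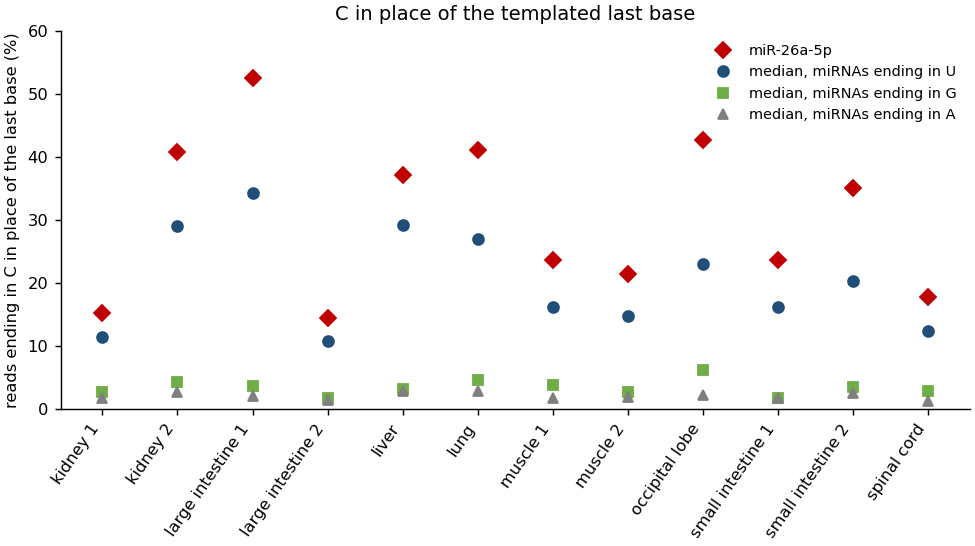
Share of reads that end in C in place of the annotated last nucleotide, in percent, for miR-26a-5p and as the median of the miRNAs that end in U, G or A, in each profile. miR-26a-5p and the median of the miRNAs ending in U are both highest in large intestine 1 (52.6% and 34.3%) and lowest in large intestine 2 (14.5% and 10.8%), while the medians for A and G stay at or below 6.26%.

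Some reads still carried the start of the 3′ adapter, which allowed a look at the end of the miRNA before trimming. Among those of miR-26a-5p with the first 5 nucleotides of the adapter, 24974 had U and 13613 had C before it, so that 35.3% ended in C. The share was 31.7% among the reads of 22 nucleotides without adapter. Both values are over all profiles together, while the share of C ran from 12.9% to 46.6% between profiles. The reads with adapter were not compared profile by profile, so these values do not tell what trimming contributes.

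The share of C changes the level that is obtained for miR-26a-5p, because reads with a non-templated end are not exact matches. When tailed reads were included, miR-26a-5p had 52274 and 52823 RPTM in large intestine, 91899 and 66860 RPTM in kidney, 201483 and 160666 RPTM in muscle, and 55629 and 45896 RPTM in small intestine. The fold difference between the profiles of a tissue was then 1.01 in large intestine and 1.37 in kidney, against 1.75 and 1.91 by templated reads, and it was 1.25 and 1.23 in muscle. The kidney profiles no longer overlapped with those of the intestines. Occipital lobe had 389677 RPTM, lung 247159 RPTM, spinal cord 177415 RPTM and liver 98071 RPTM. Lung now exceeded both muscle profiles, and liver exceeded both kidney profiles. With these counts, miR-26b-5p fell in the neural group by 0.87 ± 0.29 on the log2 scale by TMM (edgeR, adjusted p = 0.02), where 27.6% of 406 miRNAs were called lower, and miR-26a-5p had an adjusted p of 0.061 in muscle.

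For miR-26b-5p, C was added in 8.26% of the reads in kidney 1 and in 26.1% in large intestine 1, with a median of 16.4%. Its pairs differed in the same direction as those of miR-26a-5p in kidney (8.26% and 19.7%), large intestine (26.1% and 10.2%) and small intestine (12.7% and 16.0%), but not in muscle (15.6% and 16.9%). Reads of miR-26b-5p with C at their last annotated position also match miR-26a-5p with the substitution C11U, and these origins cannot be told apart. Without them, the share was between 4.66% in kidney 1 and 18.2% in large intestine 1. G was rare on both, with 0.805% to 4.09% for miR-26a-5p and 0.312% to 1.57% for miR-26b-5p. Both were lowest in small intestine 2 and highest in liver. The median share of G over the 68 miRNAs was also lowest in small intestine 2, with 0.656%, and highest in liver, with 3.09%. In limma, 0 of 14 comparisons each passed an adjusted p of 0.05 for C and for G, 0 had an unadjusted p under 0.05, and of the 68 miRNAs 1.47% were called lower for G in the neural group and 0% in all other comparisons of C and G.

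At the 5′ end, a non-templated C was found before miR-26a-5p of 22 nucleotides in 1.25% to 1.46% of the number of these reads, and other non-templated nucleotides were almost absent. This share hardly varied between the profiles, unlike C at the 3′ end. For miR-26b-5p, the same addition was 0.145% in liver to 0.737% in small intestine 1, from 298 reads in all. A nucleotide added before the miRNA moves the seed, and these reads are not among the templated reads.

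Single substitutions were counted at the first 20 positions of the 22-nucleotide forms. Of 59 substitutions of miR-26a-5p that match no other form, C12U was the most frequent, with 0.559% of the reads over all profiles, from 0.340% in liver to 0.778% in muscle 2. It was followed by A4G and A5G in the seed, with 0.289% and 0.258%, and the median of the 59 was 0.0292%. The 21 substitutions of the seed had a median of 0.0254%, and the 38 others 0.0330%. For miR-26b-5p, A4G and A5G were the most frequent of 56 substitutions, with 0.312% and 0.248%. These shares include sequencing errors, which were not measured separately.

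The miRNAs whose levels over the 12 profiles were most like those of miR-26a-5p were mml-mir-186-5p, mml-mir-101-1-3p and mml-mir-29c-3p, with Pearson's r of 0.97, 0.96 and 0.95 for log2(RPTM + 1). For miR-26b-5p, these were mml-mir-27b-3p, mml-mir-30d-5p and mml-mir-30d-3p, with r of 0.93, 0.92 and 0.87. The members themselves were less alike, with r of 0.80 between miR-26a-5p and miR-26b-5p. As all miRNAs of a profile share a library and its depth, these values are descriptions of 12 points, of which several come from the same tissue. On TMM-normalized values, mml-mir-186-5p came only at rank 11 for miR-26a-5p with r of 0.74, while mml-mir-101-1-3p and mml-mir-29c-3p were at ranks 1 and 2.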

How the data were processed

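Small RNAs of 12 profiles were sequenced by the authors on an Illumina platform with the TruSeq small RNA kit. The authors kept reads with sequencing scores of at least 30 in the first 25 nucleotides, removed the 3′ adapter and deposited the counts of identical sequences of at least 18 nucleotides, without normalization. The alignments to the genome were not repeated, and no coordinates are given, because the annotation used here for host genes is of another assembly.

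Here the deposited counts were matched to the hairpins of the study's list in Python 3.11.15. RPTM values are counts divided by all deposited reads of the profile, of which there were 22118095 to 25579064. Intervals are Wilson intervals at 95% and cover counting error only, since PCR copies were not marked. Tissue levels were tested with edgeR 4.0.16 (TMM, quasi-likelihood, SE from the F statistic) in R 4.3.3, and log2((tailed + 0.5)/(other + 0.5)) with limma 3.58.1, both with Benjamini-Hochberg adjustment over all miRNAs fitted. DESeq2 1.42.0 was an alternative. The shares of the family were compared with an exact permutation test over profiles. The tissues came from the labels, and occipital lobe and spinal cord were joined here into the neural group. The p-values measure the spread between profiles, which may be technical. In the fits with 7 groups, this spread also includes the difference between both neural tissues, and it enters the comparisons of all groups. Replicate numbers were not treated as pairs, because the labels do not tie them to animals. Deviations of profiles with the same number had correlations of -0.14 to 0.15.

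Named miRNAs are all members, the 3 most like each 5′ miRNA by Pearson's r, and the 3 with the highest median share of U and of A. Others named for C were chosen after their values were seen. The members and lists were chosen with earlier results of these data known. On simulated data, 100% of 200 miRNAs of 371 changed 8-fold in muscle were called by edgeR and 2.92% of the others, and limma called 100% of 12 of 68 miRNAs with 4-fold odds and 0% of the others. Recovery was not tested for smaller differences, such as those of miR-26a-5p in muscle. These were 1.96-fold for its level in edgeR and -0.84 for its log2 odds of A in limma. The alternatives were other read assignments, scalings, filters, groups, a replicate block, and the removal of each profile in turn.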

Additional observations from a re-analysis of the deposited data

How the results depend on the processing

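Of the 21 level comparisons, 0 passed, and 1 passed with identical reads only (miR-26b-3p in liver), 1 with tailed reads (miR-26b-5p in the neural group), 7 by total reads, 9 by total reads with tailed reads (an alternative chosen after seeing the data), 2 each with the size factors or the test of DESeq2 (miR-26a-5p in muscle and miR-26b-5p in the neural group), and 1 with 8 tissues (miR-26a-5p in muscle). Leaving out each profile gave 0 to 1, i.e., miR-26a-5p in muscle without kidney 1, large intestine 2, lung, occipital lobe or spinal cord, and miR-26b-5p in the neural group without muscle 2 or small intestine 2. In the 12 comparisons of the 8 numbered profiles, 2 passed with the replicate block and 2 without it, miR-26a-5p in muscle and miR-26b-5p in kidney in both fits. The neural difference of miR-26b-5p became 0.53 by total reads and 0.50 with tailed reads as well. Without single profiles, that of miR-26a-5p ranged from -0.24 (without occipital lobe) to 0.73, and that of miR-26b-5p in large intestine from -0.76 to 0.01 (without large intestine 1). The cause of these changes was not tested. Of the sign changes over all members and groups, 2 came with a call, both of miR-26b-3p in the neural group by total reads. Without the filter, 0 passed as well. The shares of all tested miRNAs called are given above for tailed reads, for total reads alone and for DESeq2. They are not given for the other alternatives, so those counts do not set the members apart from other miRNAs.

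For A, 1 of 14 comparisons passed, 2 passed with the templated end at the mature end (miR-26a-5p in lung as well), 0 with at least 200 reads per profile, and 0 of 8 in the 8 numbered profiles, with the replicate block or without it. Leaving out each profile gave 0 to 1 for A and 0 to 3 for G, with 3 only without small intestine 1. For U and C, the counts stayed at 0 in all these alternatives. No share over all fitted miRNAs is given beside these alternative counts for A and G, so they do not set both members apart from other miRNAs. The permutation tests kept their side of the threshold in all alternatives.

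Median shares moved by more than the spread between profiles of a tissue in the following cases. With identical reads, the share of miR-26b-5p was 0.801% and that of miR-26b-3p 3.10%. The annotated 21 nucleotides made up 14.4% of the templated reads of miR-26b-5p and 37.3% of those of miR-26b-3p. For miR-26b-3p, this form ranged from 19.0% in small intestine 2 to 66.7% in liver. Its part in the liver result of miR-26b-3p with identical reads was not tested. With tailed reads, the 22-nucleotide shares were 88.9% and 67.5%. With tails of 1 nucleotide, A was 1.60% for miR-26a-5p and 13.4% for miR-26b-5p. With the templated end at the mature end, A, U, C and G were 1.59%, 7.09%, 1.02% and 0% for miR-26a-5p and 26.6%, 0%, 32.1% and 1.95% for miR-26b-5p, where a nucleotide equal to the next templated one is 0 by construction. Without C at the last annotated position (chosen after seeing the data), C was 8.21% for miR-26b-5p. Of the first 3 miRNAs most like a member, 1 was shared by Spearman's rho for each 5′ miRNA, and 1 on TMM-normalized values for miR-26b-5p. With 1 profile in 4 tissues and 2 in the others, small differences between tissues could not be resolved, and the 94 reads of the miR-26a 3′ arms allow no comparison.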
